A study of Mus musculus with 24 samples.

Results

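Broad H3K27me3 peaks were examined in cultured mouse cerebellar granule neurons (CGNs). A broad peak is here any single peak of at least 1000 bp in the peak list of a library, so members were selected on their width. The 24 lists held 247296 peaks, and 6290 of them were broad (2.54%). Broad peaks made up 8.22 of the 63.7 Mb that all lists covered, which is 12.9%. The CGNs came from CD1-IGS pups at P6 to P8, pooled over litters and enriched on a Percoll gradient, and all cultures received 1 µM AraC, which blocks cell division, at DIV2, except that DIV1 cultures were harvested before then. DIV counts the days in vitro. 12 libraries formed a time course of untreated cultures at DIV1, DIV3, DIV5 and DIV7. In a second experiment, 5 µM GSK-126, an inhibitor of the methyltransferase EZH2, was compared with its own DMSO vehicle. In another, cultures with 1 µM GSK-J4, an inhibitor of KDM6 enzymes, were set against DMSO cultures of their own. In both, compounds were added at DIV1 and cells were harvested at DIV5. Each of the 8 groups had 3 libraries, which the labels call biological replicates. The mark was profiled by CUT&RUN, in which an antibody guides a nuclease that releases marked chromatin for sequencing.

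H3K27me3 is written by Polycomb repressive complex PRC2, whose catalytic subunit is EZH2 or EZH1, and removed by KDM6A and KDM6B. PRC2 binds the trimethyl mark it has made, which lets the mark spread from a nucleation site, and in mammals those sites are mostly CpG-rich promoters of silent developmental genes. In neurons the mark is known for keeping genes of other lineages silent.

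Broad peaks lay over DNA of different kinds, and the sequences here show them side by side. The first 3 come from places that were broad in 17 to 24 of the 24 libraries and that hold repeated DNA, and the next 3 from CpG-rich promoters that were broad in 12 to 17 libraries. The last pair are promoters that the results on drug and time turn on. All are from the GRCm38 genome (mm10, RefSeq copy), written 5′ to 3′ on the strand of the gene, end at the base before the gene start where a gene start was used, and have CpG dinucleotides in capitals. The stretch near Tcp10c lies 196 kb from that gene and is shown on the plus strand.
Gm21738, chr14:19418931-19419130, minus strand: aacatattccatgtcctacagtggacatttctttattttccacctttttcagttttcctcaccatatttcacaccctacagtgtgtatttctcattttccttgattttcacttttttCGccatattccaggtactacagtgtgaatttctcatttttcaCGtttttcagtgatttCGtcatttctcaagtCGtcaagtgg
Gm10722, chr9:3000722-3000921, plus strand: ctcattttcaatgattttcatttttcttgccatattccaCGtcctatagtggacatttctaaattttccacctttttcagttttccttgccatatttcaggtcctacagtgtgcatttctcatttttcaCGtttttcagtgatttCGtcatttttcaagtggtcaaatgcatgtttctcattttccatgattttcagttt
near Tcp10c, chr17:13551835-13552034, plus strand: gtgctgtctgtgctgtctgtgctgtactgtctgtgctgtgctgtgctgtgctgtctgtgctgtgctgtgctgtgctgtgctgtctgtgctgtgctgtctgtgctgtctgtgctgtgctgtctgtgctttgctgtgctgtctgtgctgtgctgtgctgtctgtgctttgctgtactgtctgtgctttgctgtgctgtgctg
Lrat, chr3:82903974-82904173, minus strand: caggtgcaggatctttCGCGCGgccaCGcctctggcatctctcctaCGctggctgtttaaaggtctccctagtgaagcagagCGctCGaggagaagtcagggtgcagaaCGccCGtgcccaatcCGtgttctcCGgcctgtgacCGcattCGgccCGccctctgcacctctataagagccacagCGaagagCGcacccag
Avpr1a, chr10:122448299-122448498, plus strand: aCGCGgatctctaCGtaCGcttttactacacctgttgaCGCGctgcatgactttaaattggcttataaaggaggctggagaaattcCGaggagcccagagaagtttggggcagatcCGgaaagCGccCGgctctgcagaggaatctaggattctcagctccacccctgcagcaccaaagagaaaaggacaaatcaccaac
Bmp3, chr5:98854311-98854414, plus strand: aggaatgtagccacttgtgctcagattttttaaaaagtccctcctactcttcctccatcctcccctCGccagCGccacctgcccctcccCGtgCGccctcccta
Car2, chr3:14886109-14886272, plus strand: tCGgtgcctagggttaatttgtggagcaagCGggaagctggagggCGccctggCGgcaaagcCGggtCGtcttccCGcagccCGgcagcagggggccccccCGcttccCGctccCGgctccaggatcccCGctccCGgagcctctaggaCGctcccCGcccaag
Aqp3, chr4:41098184-41098383, minus strand: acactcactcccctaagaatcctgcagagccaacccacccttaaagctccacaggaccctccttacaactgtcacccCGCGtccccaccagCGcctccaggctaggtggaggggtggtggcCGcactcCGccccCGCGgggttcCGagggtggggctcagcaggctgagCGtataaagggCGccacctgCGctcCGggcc
The Lrat stretch held 16 CpG in 200 bases and the Car2 stretch 15 in 164, whereas the Gm10722 stretch held 3 in 200 and the stretch near Tcp10c none, being built of short units of ctgtgctgt.

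Few broad peaks went far beyond the limit. Their median width was 1225 bp, 1242 of them reached 1500 bp, 147 reached 2000 bp and 30 reached 2500 bp. Of the 25 peaks of 3000 bp or more, 24 were the same place at Gm21738, a predicted gene on chromosome 14, where all 24 libraries had a peak of 3931 to 3942 bp, and these include the 5 widest peaks of the data. The remaining peak of that size, 3588 bp in DIV5 replicate 1, lay 24.9 kb from Col19a1 in a region of chromosome 1 that shares 97.6% of its 50-base words with the mitochondrial genome. The next places by width, chosen after their values were seen, were promoters. Rxfp3, the relaxin-3 receptor gene, had a peak of 2931 bp in DIV1 replicate 2 and one of 2920 bp in DIV3 replicate 3. Tac1, which encodes the precursor of substance P, reached 2779 bp and Krt19, a keratin gene, 2631 bp, both in DIV3 replicate 3. Broad peaks had a median fold enrichment, as the peak caller gave it, of 3.46, compared with 3.83 for shorter peaks, while their median −log10 q was 1.77, compared with 1.44.

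The limit of 1000 bp fell in a smooth part of the width distribution. There were 871 peaks from 1000 to 1049 bp and 1020 from 950 to 999 bp. Just inside, at 1000 bp, were peaks at the promoters of Gfi1b, which encodes a transcriptional repressor of blood cells, in DIV1 replicate 3, of Nccrp1 in replicate 3 of the GSK-J4 controls and of Adgra2, an adhesion receptor gene, in replicate 2 of the GSK-J4 controls. Just outside, at 999 bp, were peaks near Utp6 in DIV3 replicate 3, at Lepr, the leptin receptor gene, in replicate 3 of the GSK-126 controls and at H2-D1, a class I histocompatibility gene, in DIV5 replicate 1.

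Most of these places were broad in few libraries but marked in many. Overlapping or touching peaks of all 24 lists were merged into 80626 regions, of which 1661 held a broad peak and are called broad regions. They spanned 2.80 Mb, with a median of 1610 bp and a range of 1002 to 4780 bp. 576 regions were broad in 1 library, 719 in 2 to 5, 288 in 6 to 11, 66 in 12 to 17 and 12 in 18 or more. The 576 regions that were broad in 1 library had some peak in a median of 18 libraries, and none of them lacked a peak elsewhere. 369 broad regions had a peak in all 24 libraries. By group, 637 regions were broad in 1 of the 8 groups and 31 in all 8. Merging widened regions, since any library could extend one, and a region with several pieces in a library was not broad there unless 1 piece reached 1000 bp.

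**Figure D1:**
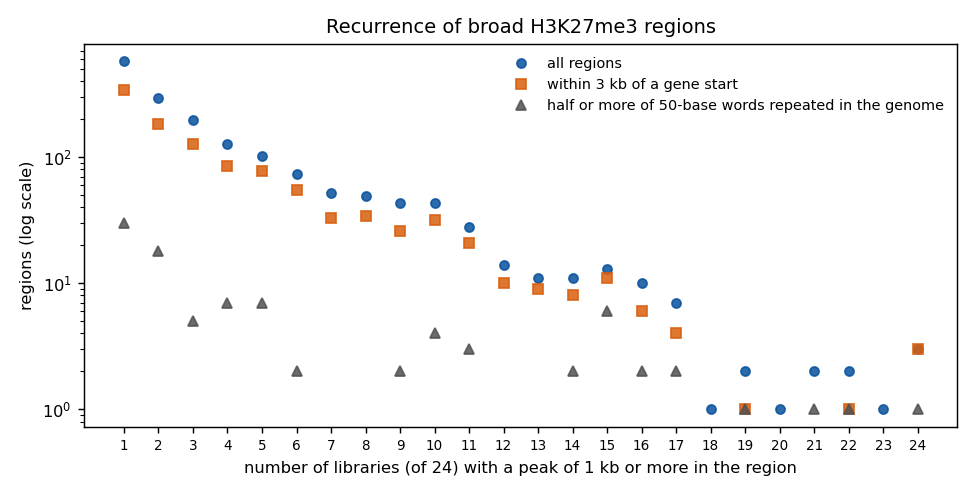
Number of broad regions (log scale) against the number of the 24 libraries that had a peak of 1 kb or more in the region, for all 1661 regions (circles), for those within 3 kb of a gene start (squares) and for those with at least 50% of their 50-base words repeated in the genome (triangles). The count falls from 576 regions in 1 library to 28 in 11, and 3 regions are broad in all 24 libraries.

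The regions that were broad in the most libraries often held repeated sequence. 3 regions were broad in all 24 libraries, at the predicted genes Gm21738, Gm10722 and Gm10800. At Gm10722 the broad peak had between 1465 and 1736 bp and at Gm10800 between 1049 and 1061 bp, a narrow range over all groups. 9 others were broad in 18 to 23 libraries. Those at genes with a known product were H60b, which encodes a ligand of an activating receptor of natural killer cells (23 libraries), Lvrn, a membrane aminopeptidase gene (22), Rps6ka4, a stress-activated kinase gene (20), Anxa11, which encodes a calcium-dependent phospholipid-binding protein (19), and Kcp, a secreted modulator of BMP signalling (18). Lvrn and Anxa11 were broad at the promoter, but H60b, Rps6ka4 and Kcp in the gene body, 114.8, 9.13 and 10.25 kb from the gene start. The remaining ones lay 3.03 kb from Tmem125 (22), 6.27 kb from Gm21762 (21), 54.7 kb from 2010315B03Rik (21) and within Gm8206 (19). Repeats were frequent among them: 4 of these 12 regions (33.3%) had at least 50% of their 50-base words at another place in the genome, compared with 5.66% of all broad regions. Such repeats were not particular to broad regions. The share was 26.8% in regions marked in at least 12 libraries but never broadly, and 19.5% in all regions that were never broad. The part of read placement in these widths was not tested. At Plac9a and Gm9780, a pair of copies on chromosome 14 with 100% repeated words, the longest peak had the same width in 23 of the 24 libraries.

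Promoters made up most of the remaining recurrent places. Of the 66 regions that were broad in 12 to 17 libraries, 72.7% lay within 3 kb of the annotated 5′ end of a protein-coding gene. Among those in 17 libraries, named here after their values were seen, were Lrat, which encodes the enzyme that esterifies vitamin A, Avpr1a, a vasopressin receptor gene, Corin, a protease gene, and Frem3, which encodes a matrix protein. At Lrat the longest peak was 861, 922 and 1595 bp at DIV1, 1293, 1772 and 1887 bp at DIV3, 1793, 1331 and 1891 bp at DIV5 and 956, 906 and 1690 bp at DIV7, so that all 6 libraries of DIV3 and DIV5 were broad there and the other days were mixed. At Avpr1a the DIV7 libraries had 1051, 310 and 914 bp and the GSK-126 controls 1558, 2111 and 1624 bp. A single region was broad in all 3 libraries of a group and in no other library. It lies 39.1 kb from Lhx2, which encodes a LIM homeodomain factor, and had 1057, 1011 and 1273 bp at DIV1, compared with 155, 0 and 168 bp at DIV7. The region was picked by these values. Its longest peak was 581, 490 and 831 bp at DIV3 and 616, 305 and 878 bp at DIV5. It reached 966 bp in replicate 2 of the GSK-J4 controls, so the pattern depends on the limit of 1000 bp.

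Broad regions were promoter regions with many CpG. 64.6% of the 1661 lay at a promoter, 18.4% in a gene body and 16.98% between genes, whereas the 78965 other regions were 15.96% promoter, 28.9% gene body and 55.2% intergenic. Among other regions with a peak in at least 12 libraries, 31.1% were at promoters. The median CpG content was 4.19 per 100 bp in broad regions and 1.18 in the others. Among promoters it was 4.63 in broad regions and 4.18 in those marked in at least 12 libraries but never broadly. GC content had a median of 57.1%, compared with 50.2%. The X chromosome held 14 broad regions, 0.843% of them, and 5.94% of the other regions. These are descriptions, since the regions were chosen by width and a wider region has more ways to reach a gene start.

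The peaks sat mainly downstream of the gene start. A wider peak has more ways to cover a gene start. Of 4239 broad peaks at promoters, 61.1% covered the start itself, compared with 13.2% of 72313 shorter promoter peaks. Those that covered it extended a median of 368 bp upstream and 919 bp into the gene, and 80.7% were longer on the downstream side. Shorter peaks over a start extended 147 bp upstream and 212 bp downstream, with 60.1% longer downstream. By group the share longer downstream was between 72.5% at DIV7 (98 peaks) and 87.0% with GSK-126 (92 peaks), whose DMSO controls had 85.7%.

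**Figure D2:**
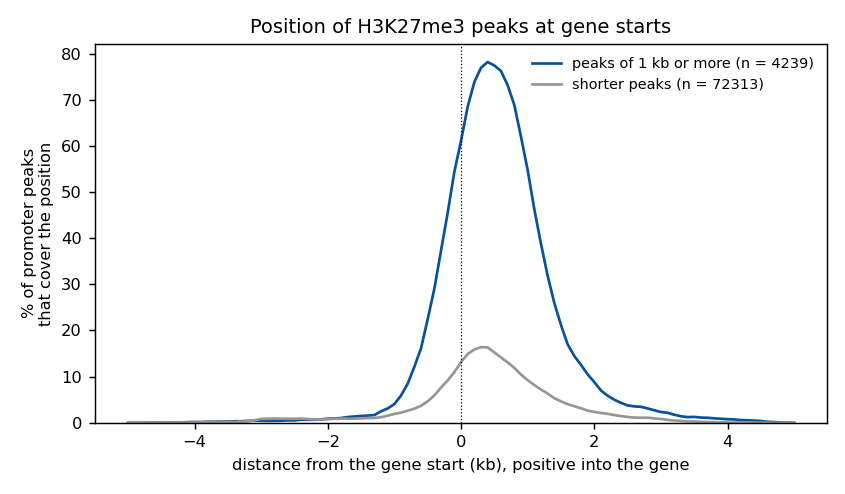
Percent of the peaks at promoters that cover each position, against the distance from the gene start in kb, positive into the gene, for 4239 peaks of 1 kb or more and 72313 shorter peaks of all 24 libraries. Coverage by broad peaks is highest 0.4 kb into the gene, at 78.2%, and that by shorter peaks is 16.4% at 0.3 kb.

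The share of promoters that were broad ranged from 0 to 23.4% over the gene lists. Over all protein-coding genes, 1141 of 21924 (5.20%) had a broad region at the promoter and 8338 had any peak there. Of the 77 secreted ligands and antagonists of the Wnt, BMP, hedgehog and FGF families, 18 were broad. Of 120 ion channel subunits 20 were, from a list that held voltage-gated channels and also leak potassium channels such as Kcnk5. Of 48 glutamate and GABA receptor subunits 6 were, and of the fate transcription factors outside the Hox clusters 11 (5.26%). None of 39 Hox genes was broad, although 13 had a peak in some library, and none had a peak in 12 or more. None of 83 ribosomal protein genes and none of 1092 olfactory receptor genes was broad. No test was made of these counts.

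Within the lists, the broad members were these. Among ligands, Bmp3, a BMP family member that opposes other BMPs, was broad in 12 libraries, Dkk2 in 11, Dkk3 in 7 and Fgf17 in 6. Dkk2 and Dkk3 belong to the Dickkopf family, whose founding members modulate Wnt signalling. At Dkk2 the longest peak was 1055, 1370 and 1673 bp at DIV1 and 813, 454 and 980 bp at DIV7, so that all DIV1 libraries and no DIV7 library were broad. Among channels, Kcnk5, which encodes a leak potassium channel, was broad in 12 libraries, Kcnc2, a fast delayed rectifier gene, in 11, and Kcns3 and Kcnf1, genes of subunits that modify other potassium channels, in 10 and 9. Among receptors, the metabotropic glutamate receptor genes Grm2 and Grm7 were broad in 5 and 4 libraries and the GABA receptor subunit genes Gabra5 and Gabrd in 1 each, DIV1 replicate 2. Among transcription factors, Sox18, known from endothelial cells, was broad in 8, Foxh1, a mediator of Nodal signalling, and Six5 in 5 each and Prdm1, a repressor of lymphocyte differentiation genes, in 3.

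Few genes of the next lists were broad, and the lists are too short to set against the 5.20% of all protein-coding genes. Of 12 granule neuron identity genes, including Neurod1 and Zic1, 0 had a broad region and 5 had a peak in any library, at most in 4 of the 24. Of 27 markers of other cerebellar cell types 3 were broad: Cldn5, an endothelial tight junction gene, in 9 libraries, Pvalb, an interneuron and Purkinje cell gene, in 1 and S1pr1, listed as an astrocyte gene, in 1. Peaks do not give a gene's expression, so the lists do not measure which cells were present. Of the 15 genes that the study used as examples, some chosen on these samples, 3 were broad. Jag1, a Notch ligand gene, was broad in DIV1 replicate 2 and in DIV3 replicates 2 and 3, with 1098, 1054 and 1384 bp, and its DIV7 libraries had no peak. Myc, which encodes a factor that drives proliferation, was broad in DIV3 replicate 2 (1135 bp), and Gabrd in DIV1 replicate 2 (1065 bp). Grin2c, an NMDA receptor subunit gene, reached 991 bp and had a peak in 19 libraries, and Atoh1, the master regulator of granule neuron precursors, reached 786 bp with a peak in 14. The remaining 10 had a peak in at most 5 libraries.

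The number of broad peaks varied as much between replicates as between days. At DIV1 there were 64, 883 and 635 broad peaks in replicates 1 to 3, at DIV3 36, 427 and 928, at DIV5 366, 141 and 396, and at DIV7 57, 29 and 121. The mean was 527 ± 420 (SD, n = 3) at DIV1, 464 ± 447 at DIV3, 301 ± 139 at DIV5 and 69.0 ± 47.2 at DIV7. Replicate 1 of DIV1 and of DIV3 lay far below the others of its day and within the range of DIV7. The length covered by broad peaks followed the number, with 82.0, 1203 and 843 kb at DIV1, 45.8, 549 and 1251 kb at DIV3, 482, 173 and 511 kb at DIV5 and 75.1, 38.2 and 152 kb at DIV7. Lists also differed in total length, from 1.07 to 6.57 Mb, and replicate 1 of DIV1 and DIV3 had 1.33 and 1.11 Mb. Relative to the length of its own list, the share in broad peaks was 6.19, 23.2 and 20.6% at DIV1, 4.14, 16.1 and 19.0% at DIV3, 14.2, 7.31 and 12.8% at DIV5 and 6.02, 3.22 and 6.77% at DIV7. DIV1 and DIV7 thus overlapped only through DIV1 replicate 1.

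No whole-library measure passed the test over time after adjustment. Between DIV1 and DIV7 the number fell by 458 (exact two-sided permutation test, p = 0.2, adjusted over 16 tests 0.267), where 3 libraries against 3 allow no p below 0.1. Over the 12 libraries the slope of the number was −76.9 peaks per DIV (exact permutation test over 369600 arrangements, p = 0.0661, adjusted p = 0.178). For covered length the slope was −104 kb per DIV (exact permutation p = 0.0653, adjusted 0.178), for the share −1.78 percentage points per DIV (exact permutation p = 0.0423, adjusted 0.178) and for the 95th percentile of the width of all peaks, which did not use the limit of 1000 bp, −47.0 bp per DIV (exact permutation p = 0.0196, adjusted 0.178). Without replicate 1 of any day the slopes were −123 peaks (exact permutation p = 0.0111), −167 kb (exact permutation p = 0.0111), −2.92 points and −74.7 bp (exact permutation p = 0.000794 for both), a choice made after seeing the data. Without DIV1 replicate 1 alone the slopes of number and length were −110 peaks and −149 kb (exact permutation p = 0.00941 and 0.0097), and without DIV3 replicate 1 alone −83.9 peaks and −114 kb (exact permutation p = 0.0435 and 0.0436). Without DIV1 replicate 2 the slopes were −56.5 peaks, −75.8 kb, −1.38 points and −38.5 bp, with exact permutation p from 0.0590 to 0.183.

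**Figure D3:**
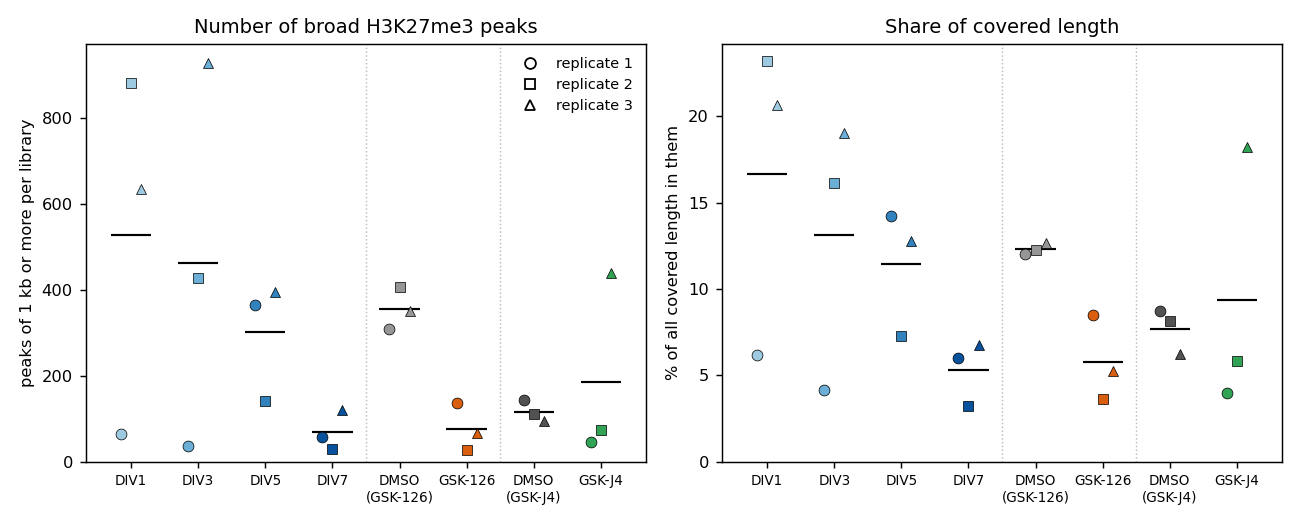
Number of peaks of 1 kb or more per library (left) and percent of all covered length that lies in them (right), for the 8 groups, with circles, squares and triangles for replicates 1, 2 and 3 and bars for group means. All 3 GSK-126 libraries (28 to 136 peaks) lie below all 3 of their DMSO controls (308 to 408), while replicate 1 of DIV1 and DIV3 lies among the DIV7 libraries.

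Fewer of the places that were broad in other experiments were broad in each DIV7 library than in each DIV5 library. For this comparison 307 regions that were broad in at least 3 of the 12 libraries of the drug experiments were followed through the time course. All drug experiment libraries were harvested at DIV5, so the set was picked for breadth at DIV5 and favours that day. At DIV1 11.7, 75.6 and 63.2% of them were broad, at DIV3 9.77, 62.9 and 85.7%, at DIV5 55.1, 32.3 and 68.7% and at DIV7 14.0, 8.14 and 26.1%. At DIV7 the regions were still marked: 0.977 to 9.77% had no peak, 35.8 to 45.6% had several shorter pieces and 28.3 to 46.3% a single shorter peak. The DIV7 range lay below that of DIV5 and overlapped those of DIV1 and DIV3 through their replicate 1. DIV1 had 1095 broad regions over its 3 libraries and DIV7 155, of which 112 were shared, 10.2% of the DIV1 regions and 72.3% of the DIV7 regions. In the DIV7 libraries 35.1, 44.8 and 19.0% of the broad peaks lay in repeated sequence, compared with 18.8, 4.08 and 4.72% at DIV1. The numbers of such peaks overlapped, with 20, 13 and 23 at DIV7 and 12, 36 and 30 at DIV1. Other libraries with few broad peaks, such as DIV3 replicate 1 and GSK-126 replicate 2, had 22.2 and 35.7%.

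**Figure D4:**
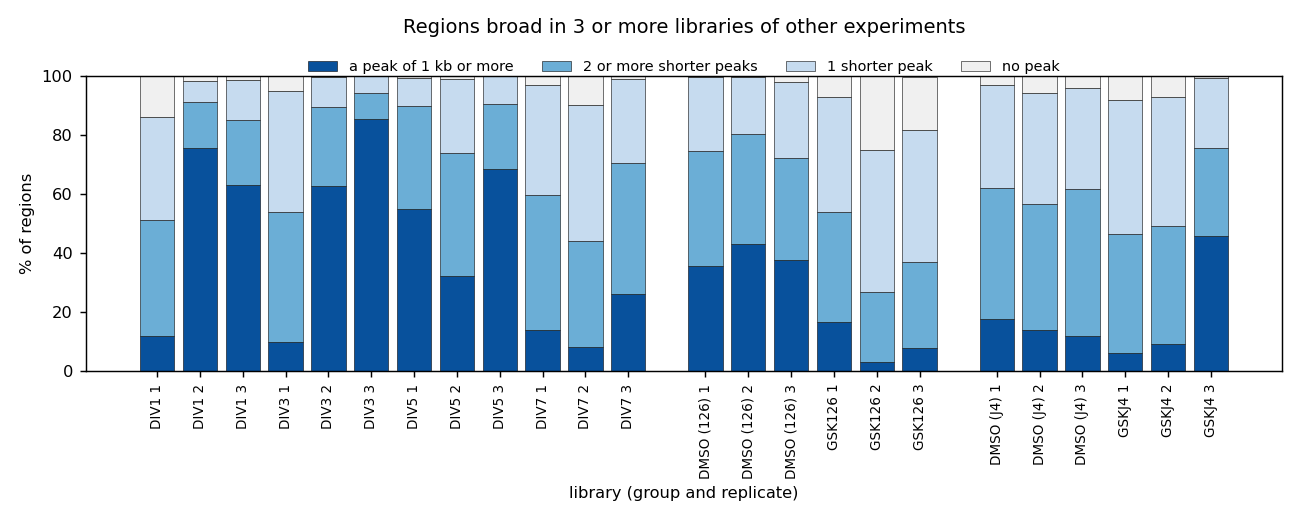
Percent of regions that had a peak of 1 kb or more, several shorter peaks, 1 shorter peak or no peak in each library, over 307 regions for the time course, 693 for the GSK-126 experiment and 727 for the GSK-J4 experiment, each set broad in at least 3 libraries outside that experiment. With GSK-126 2.89 to 16.6% of the regions were broad, compared with 35.8 to 43.2% in the DMSO controls.

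Region by region, few broad regions changed over time. The percent of each region covered by peaks was compared with limma after each list was limited to its strongest peaks up to the length of the shortest list, called the common length, and regions were counted if they were broad in a library outside the time course. Between DIV1 and DIV7, 6 of 798 such regions passed an adjusted p of 0.05, 2 higher and 4 lower at DIV7, where 34 of all 4504 regions tested did (0.755%), so the share among broad regions was near the background. Their median difference was 3.05 percentage points, compared with 0 for all regions. Between DIV3 and DIV7, 1 of 798 passed, higher at DIV7 (background 13 of 4504, 0.289%), and for the slope over DIV 6 passed, 2 rising and 4 falling (background 48 of 4504, 1.07%). Without DIV7 replicate 1, 2 or 3, 0 regions passed in the DIV1 comparison, with 73 to 80 at an unadjusted p of 0.05, and without DIV1 replicate 2 or 3, 2 and 3 passed. The latter were 0.252 and 0.383% of the broad regions tested, where 0.721 and 0.587% of all regions passed. The DIV3 call, at Klhl1, was lost without DIV3 replicate 1, 2 or 3, and without DIV7 replicate 1, 2 or 3 the region was covered in too few libraries to be tested. For the slope, 2, 2 and 3 regions passed without DIV7 replicate 1, 2 or 3, 10 without DIV1 replicate 1 and 3 without DIV1 replicate 2. In that order these were 0.26, 0.258, 0.384, 1.28 and 0.377%, where 0.288, 0.266, 0.24, 1.7 and 0.86% of all regions passed. Klhl1 was not tested without a DIV7 replicate, nor Tmem200a without a DIV1 replicate, since each was then covered in fewer than 3 libraries. On the log2 scale of the longest peak the balance of directions turned. There 5 of 864 broad regions were higher and 1 lower at DIV7 than at DIV1 (background 36 of 31710, 0.114%). Over DIV, 9 rose and 1 fell (background 41 of 31710, 0.129%). That fit was not limited to regions covered in at least 3 libraries. Of its 31710 regions, 17669 were covered in at least 1 time course library, so its calls and background are not like those above.

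With all deposited peaks the picture leaned the other way, and no region was called. limma called 0 of 863 broad regions between DIV1 and DIV7 (145 at an unadjusted p of 0.05; 0 of 12015 regions in all, 0%), 0 between DIV3 and DIV7 (11.9% of regions unadjusted; background 0%) and 0 for the slope (163 unadjusted; background 0%). The median difference between DIV1 and DIV7 was −23.4 percentage points in broad regions and −15.2 in all regions, the reverse in sign of the value at the common length. Leaving out DIV1 replicate 1 gave 23 broad regions lower at DIV7 (2.67%, where 4.26% of all regions were called) and 43 with a falling slope (4.98%, where 6.07% were called). Leaving out DIV3 replicate 1 or 3 gave 3 and 2 with a falling slope (0.348 and 0.232%, where 0.431 and 0.349% were called). Coverage from all deposited peaks carries the difference in list length, and the part of that length in these values was not tested.

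Jam2 and Klhl1 were the called broad regions with more coverage late in culture. Jam2 encodes a junctional adhesion molecule. Its longest peak, in the full lists, was 198, 0 and 757 bp at DIV1, 553, 1092 and 1072 bp at DIV3, 1512, 1056 and 1275 bp at DIV5 and 1110, 972 and 1142 bp at DIV7, and the DIV1 libraries all lay below those of DIV5 and DIV7. Coverage at the common length rose by 14.3 ± 1.87 (SE) percentage points per DIV (limma, adjusted p = 0.00492, range over alternatives 0.00311 to 0.542). The common length left out the peaks of all DIV1 libraries and of DIV3 replicates 2 and 3, and with all deposited peaks the slope was 8.74 ± 2.92 (limma, adjusted p = 0.199). Klhl1, which encodes a neuronal actin-binding protein, had no peak in the DIV1 libraries, a short peak in 1 of 3 libraries at DIV3, 248, 0 and 482 bp at DIV5 and 469, 591 and 353 bp at DIV7. It gained 55.9 ± 8.01 (SE) percentage points from DIV1 to DIV7 (limma, adjusted p = 0.00710, range 7.36e-05 to 0.557), but it was broad in 1 library only, replicate 3 of the GSK-126 controls. At the common length Klhl1 was covered in the DIV7 libraries alone. It met the limit of 3 covered libraries only through the group where it was high, so its p-values are no support for a rise.

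Aqp3, Hsd17b1, Tmem200a and a region of the Y chromosome had less coverage at DIV7. Aqp3 encodes a channel for water and glycerol. Its longest peak was 1172, 1086 and 1218 bp at DIV1, 880, 1212 and 1219 bp at DIV3, 817, 959 and 967 bp at DIV5 and 77, 299 and 480 bp at DIV7, so every DIV7 library lay below every library of the earlier days. The difference between DIV1 and DIV7 was −48.3 ± 9.03 percentage points (limma, adjusted p = 0.0338, range 0.0363 to 0.718). Hsd17b1, an enzyme gene of oestrogen synthesis, had 1309, 1620 and 1677 bp at DIV1 and 215, 171 and 288 bp at DIV7 (−71.6 ± 11.4 points, limma adjusted p = 0.0143, range 0.0104 to 0.764). DIV3 and DIV5 had 449 to 1332 bp, above all DIV7 libraries but overlapping DIV1 through DIV5 replicate 1. This region also lies at the promoter of Coasy. At Tmem200a, a transmembrane protein gene, the DIV1 libraries had 495, 1113 and 1074 bp and the DIV7 libraries no peak (−67.4 ± 11.7 points, limma adjusted p = 0.0224, range 0.000976 to 0.633). At the common length Tmem200a was covered in the DIV1 libraries alone. It entered the test only through the group where it was high, so its p-value is no support for a fall. The Y chromosome region, 13.5 kb from Gm47283, has 97.4% repeated words and fell by 80.2 ± 10.96 points (limma adjusted p = 0.00639, range 0.00354 to 0.475). The pups were pooled by litter, so how many males each library held is not known.

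Broad peaks were fewer in every GSK-126 library than in every one of its controls. The DMSO libraries had 308, 408 and 352 broad peaks and the GSK-126 libraries 136, 28 and 67. The means were 356 ± 50.1 (SD, n = 3) and 77.0 ± 54.7, and the groups did not overlap. They covered 397, 519 and 449 kb with DMSO and 169, 39.0 and 86.0 kb with GSK-126, and the share of all covered length was 12.04, 12.3 and 12.7% compared with 8.48, 3.65 and 5.28%. The difference was −279 broad peaks, −357 kb, −6.52 percentage points and, for the 95th percentile of the width of all peaks, −160 bp. Each of these 4 exact permutation tests gave p = 0.1, the smallest p that 3 libraries against 3 allow (adjusted 0.178). At a minimum width of 2000 bp, where few peaks remain, the share differed by 0.0948 points in the other direction (exact permutation p = 0.7). The GSK-126 lists were also shorter in all, at 1.07 to 2.00 Mb compared with 3.29 to 4.23 Mb. At the common length the difference in number was −107 (exact permutation p = 0.1).

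In the full lists most of the regions remained marked with GSK-126, in shorter peaks. Of 693 regions broad in at least 3 libraries outside this experiment, 35.8, 43.2 and 37.7% were broad in the controls and 16.6, 2.89 and 7.79% with GSK-126. The share with no peak was 0.289, 0.289 and 1.88% in the controls and 7.07, 25.1 and 18.2% with GSK-126. The median longest peak was 837, 937 and 855 bp in the controls and 564, 250 and 317 bp with GSK-126. At the common length fewer regions were still broad with GSK-126 (14.7, 2.89 and 7.22%) than in the controls (21.2, 21.8 and 22.5%), but the other measures did not keep their order. There the share with no peak was 43.2, 49.2 and 44.4% in the controls and 30.5, 25.1 and 34.1% with GSK-126, and the median longest peak overlapped, with 55 and 289 bp in control replicates 2 and 3 and 397, 250 and 234 bp with GSK-126. The controls had 667 broad regions and the GSK-126 libraries 179, and 130 were shared, 19.5% of the former and 72.6% of the latter.

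In the fit of region coverage at the common length, 21 of 899 regions that were broad outside the experiment passed, 5 higher and 16 lower with GSK-126, where 75 of all 2390 regions did (3.14%). The share of broad regions (2.34%) was thus near the background. When any 1 of the 6 libraries was left out limma called 0 regions, with 90 to 170 at an unadjusted p of 0.05, and it called 0 with the replicate number as a block. Each leave-out could test only 16 to 18 of the 21, since the others were then covered in fewer than 3 libraries. With all deposited peaks 248 of 1477 passed, 247 of them lower, where 726 of all 6121 regions did (11.9%), and 14 of the 21 were among them. On the log2 scale of the longest peak the balance turned, with 9 regions higher and 2 lower, 6 of the 21 among them (background 44 of 31710, 0.139%). That fit had no limit of 3 covered libraries, and 13834 of its 31710 regions were covered in at least 1 library of this experiment. With all deposited peaks and without GSK-126 replicate 1, 9.29% of 1442 broad regions passed, where 6.15% of all 5283 did. On those lists 0 passed without GSK-126 replicate 2 or 3 or without control replicate 1, 2 or 3. The median difference was −23.8 percentage points in broad regions and −19.6 in all regions with all deposited peaks, and −3.93 and −2.74 at the common length.

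Of the 16 regions lower with GSK-126, 8 are described here. Bmp3, whose start sequence is given above, had a longest peak of 1426, 1493 and 1252 bp in the controls and 226, 251 and 198 bp with GSK-126. Its coverage differed by −74.3 ± 8.36 (SE) percentage points (limma, adjusted p = 0.0159, range over alternatives 0.0161 to 0.407). Car2, a carbonic anhydrase gene, had 1252, 1309 and 1129 bp and then 0, 239 and 0 bp (−82.8 ± 9.34 points, limma adjusted p = 0.0159, range 0.0161 to 0.902). At both, every GSK-126 library was below every control. Ptprm, a receptor tyrosine phosphatase gene of cell adhesion, was broad in 15 libraries in all and had 1525, 1357 and 1647 bp compared with 350, 0 and 816 bp (−69.9 ± 8.08 points, limma adjusted p = 0.0159, range 0.00171 to 0.432). At the common length Ptprm was covered only in the controls, so it entered the test only through the group where it was high. Slc1a5, a neutral amino acid transporter gene, had 1157, 1224 and 1083 bp compared with 0, 0 and 182 bp (limma adjusted p = 0.0189, range 0.00394 to 0.570), and Arhgap31, which encodes a GTPase-activating protein for Rac1 and Cdc42, 832, 1018 and 973 bp compared with 152, 0 and 0 bp (limma adjusted p = 0.0189, range 0.00394 to 0.512). Tmem196, a transmembrane protein gene, had 1110, 1103 and 920 bp and then 182, 0 and 0 bp (limma adjusted p = 0.0279, range 0.0165 to 0.674). A region 264 kb from Cdh4, a cadherin gene, and one in Gm28539 with 98.5% repeated words were also lower (limma adjusted p = 0.0203 and 0.0279, ranges 0.0489 to 0.454 and 0.00806 to 0.515). The Gm28539 region, like Ptprm, was covered at the common length only in the controls. Jam2 was among the remaining 8, with 1207, 1149 and 1007 bp in the controls and 0, 0 and 372 bp with GSK-126.

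The 5 regions higher with GSK-126 at the common length had peaks in the full lists of their controls that the common length leaves out. They were the promoters of Cdc14b, a cell cycle phosphatase gene, Slc5a1, a sodium-glucose cotransporter gene, Srd5a2, which encodes the enzyme that makes dihydrotestosterone, Pkp1, a desmosome gene, and Col14a1, a collagen gene. Differences at the common length were 46.7 to 72.0 percentage points (limma adjusted p = 0.0152 to 0.0480, range over alternatives 0.00386 to 0.977), with 0 coverage in all 3 controls. All 5 thus met the limit of 3 covered libraries only through the group where they were high. Their p-values are therefore no support for a rise. Cdc14b had 418, 614 and 544 bp in the controls and 1156, 967 and 749 bp with GSK-126, which do not overlap, while Srd5a2 had 1540, 696 and 2111 bp and 1178, 750 and 1796 bp, which do. With all deposited peaks the difference at Srd5a2 was −8.46 points.

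**Figure D5:**
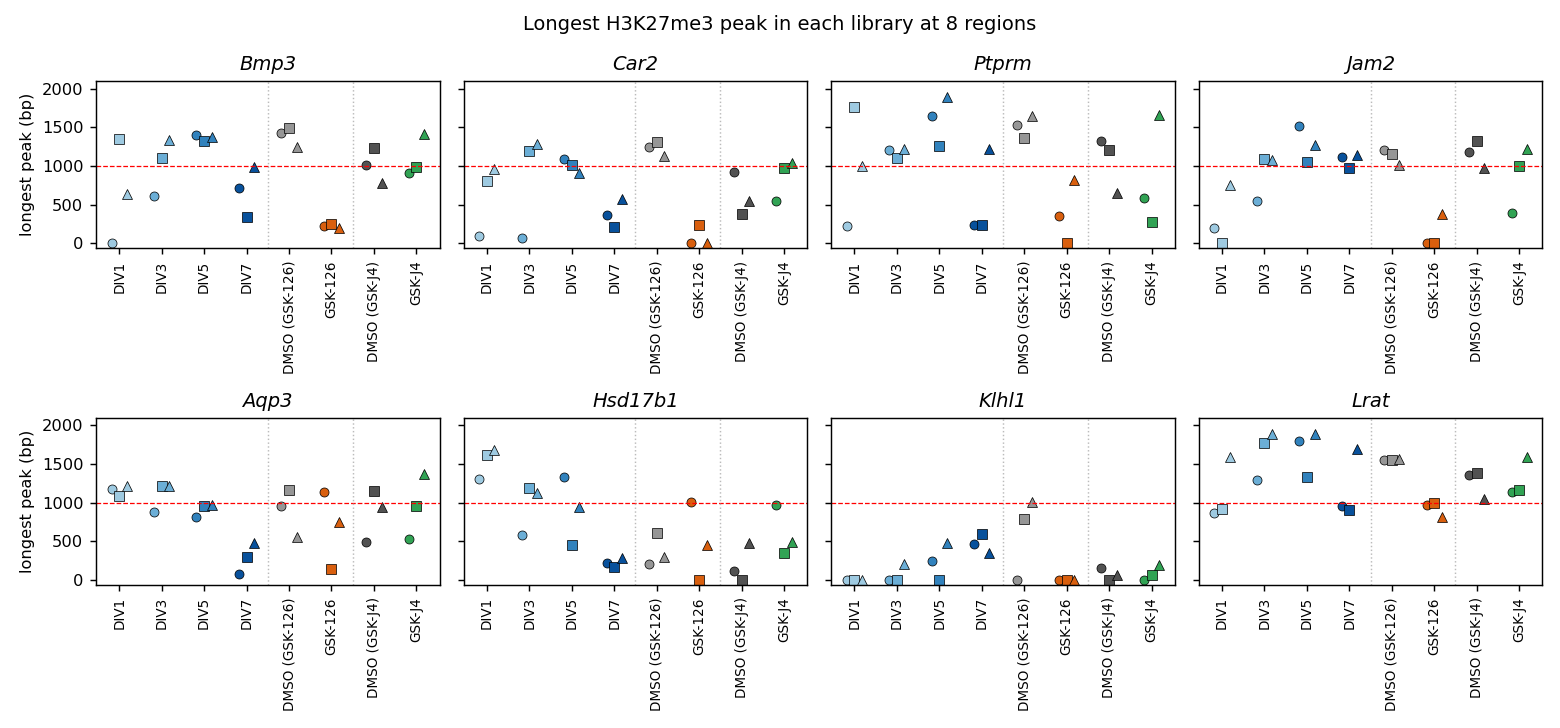
Longest peak in bp in each library at 8 broad regions, for the 8 groups, with circles, squares and triangles for replicates 1, 2 and 3, 0 for no peak and a dashed line at 1000 bp. At Bmp3 the GSK-126 libraries had 198 to 251 bp and their controls 1252 to 1493 bp, and at Aqp3 the DIV7 libraries had 77 to 480 bp and the DIV1 libraries 1086 to 1218 bp.

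The GSK-J4 libraries lay on both sides of their controls. The DMSO libraries had 143, 111 and 95 and the GSK-J4 libraries 45, 75 and 439, so replicates 1 and 2 lay below all controls and replicate 3 above them. The means were 116.3 ± 24.4 (SD, n = 3) and 186 ± 219. The broad peaks covered 181, 138 and 118 kb with DMSO and 56.01, 94.1 and 567 kb with GSK-J4, and held 8.70, 8.14 and 6.22% and 3.99, 5.83 and 18.3% of all covered length. The differences of 70.0 peaks, 93.3 kb, 1.67 percentage points and 24.1 bp in the 95th percentile of width had an exact permutation p of 1.0. Without GSK-J4 replicate 3 they were −56.3 peaks, −70.6 kb and −96.8 bp (exact permutation p = 0.1 each, the smallest that 2 libraries against 3 allow) and −2.78 points (exact permutation p = 0.2). Of 727 regions broad in at least 3 libraries outside this experiment, 17.7, 13.8 and 11.8% were broad in the controls and 6.05, 9.22 and 45.7% with GSK-J4.

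No broad region passed the region test with GSK-J4. limma called 0 of 1290 at the common length (38 at an unadjusted p of 0.05), where 10 of all 3552 regions passed (0.282%), and 0 of 1457 with all deposited peaks (12 unadjusted), where 9 of 4945 did (0.182%). On the log2 scale of the longest peak, 5 of 1615 regions passed (0.31%), 1 higher and 4 lower, where 28 of all 31710 did (0.0883%). That fit too had no limit of 3 covered libraries, and 14528 of the 31710 were covered in at least 1 library of this experiment. The median difference was −1.41 percentage points at the common length in broad regions and −1.27 in all regions. Bmp3 had 1014, 1235 and 779 bp in these controls and 914, 990 and 1417 bp with GSK-J4, and Jam2 1175, 1320 and 980 bp and 389, 1003 and 1223 bp, so the groups overlapped at both.

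The control libraries of the experiments were not alike. The GSK-126 controls (308 to 408 broad peaks) lay above the GSK-J4 controls (95 to 143), although both were DMSO cultures harvested at DIV5, and untreated DIV5 cultures spanned 141 to 396. The GSK-126 controls shared 395 broad regions with DIV5, 59.2% of their own 667 and 63.9% of the DIV5 regions. Of the 248 broad regions of the GSK-J4 controls 81.1% were also broad at DIV5, which is 32.5% of the DIV5 regions. Drug libraries were therefore compared only with their own controls.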

How the data were processed

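H3K27me3 CUT&RUN peak lists of 24 CGN libraries, 3 for each of 8 groups, were analysed. Per the labels and methods, the authors trimmed reads with Trimmomatic 0.38, aligned them to mm10 with STAR 2.7.2b and called broad peaks in each library with MACS2 2.1 at an FDR of 0.1. The deposited peaks carry the caller's fold enrichment and −log10 p and q values. The control used for the calls is not given in the sources used here, and the read depth is unknown, so a region without a peak is one below the caller's threshold. Replicate numbers were not taken to pair the libraries, since not every same-number correlation of deviations was over 0.1 in any experiment. p-values measure the spread between cultures.

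Peaks of at least 1000 bp were selected, and overlapping or touching peaks of all lists were merged. Regions were named by a protein-coding gene with its 5′ end within 3 kb, else by a gene they overlap, else by the nearest gene (GENCODE vM21, mm10), and sequence came from RefSeq GRCm38.p6. The sequence of 1 promoter is not reported here. A region counted as repeated if at least 50% of its 50-base words occur elsewhere in the genome. Library measures were compared with exact permutation tests, adjusted by Benjamini-Hochberg over 16 tests. The percent of each region covered was fitted with limma (3.58.1, R 4.3.3; robust eBayes, Benjamini-Hochberg over all regions covered in at least 3 libraries), each list being limited to its strongest peaks up to the shortest list of its experiment. Regions are reported only if broad in a library outside the experiment tested. Other steps used Python 3.11.15, numpy 2.4.6, pandas 2.3.3 and matplotlib 3.10.9. Named regions were the 12 broad in the most libraries, the 5 widest peaks, up to 8 called regions per comparison and direction by adjusted p, up to 4 genes per list, the study's example genes and the 3 peaks on either side of the limit. Others are said to be chosen after their values were seen. Members and lists were chosen with earlier results of these data known. Alternatives were all deposited peaks, a −log10 q of at least 2, widths of 500 and 2000 bp, joining of peaks under 500 bp apart, the log2 longest peak (pseudocount 100 bp), regions covered in at least 1 library, a replicate block and leaving out each library. The log2 longest peak was fitted over all 31710 regions with a peak at the common length in any experiment, without the limit of 3 libraries. No replicate 1 of any day, and the block and leave-outs with all deposited peaks, were added after seeing the data.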

Additional observations from a re-analysis of the deposited data

How the results depend on the processing

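Over DIV, the slopes without replicate 1 of any day were −123 peaks and −167 kb per DIV, past 0.05 where the full data were not, as they also were without DIV1 replicate 1 (−110 and −149) or DIV3 replicate 1 (−83.9 and −114). The slope of the share was −2.10 percentage points at a −log10 q of at least 2 and −2.69 at the common length, and that of the 95th percentile of width −49.3 and −57.2 bp, all 4 no longer past 0.05. The share differed by 0.0948 points with GSK-126 at a minimum of 2000 bp, and with joined peaks the GSK-J4 differences turned to −1.11 points and −13.9 bp. Leaving out 1 library gave, for DIV7 minus DIV1, −690 to −281 peaks, −934 to −374 kb, −16.6 to −8.07 points and −410 to −222 bp. For the slope it gave −110 to −56.5 peaks, −149 to −75.8 kb, −2.49 to −1.38 points and −63.0 to −38.5 bp. For GSK-126 it gave −309 to −253 peaks, −392 to −325 kb, −7.85 to −5.44 points and −207 to −136 bp. For GSK-J4 it gave −56.3 to 141 peaks, −70.6 to 185 kb, −2.78 to 4.35 points and −96.8 to 93.4 bp, the lowest values without replicate 3. Called broad regions for DIV7 minus DIV1 numbered 0 with all deposited peaks, with and without the replicate block, 0 at a −log10 q of at least 2, 0 without replicate 1 of any day on either list and 3 with regions covered in at least 1 library. They numbered 0 to 8 without 1 library, and 0 to 23 with all deposited peaks without 1 library, 1 without DIV3 replicate 3. Of all regions 0.136% passed with at least 1 library and 0.0958 to 1.34% without 1 library. With all deposited peaks without 1 library it was 0 to 4.26%. For DIV7 minus DIV3 they numbered 0 on all deposited peaks, with the block or any library left out, 0 at a −log10 q of at least 2, 0 without replicate 1 of any day, 4 on the log2 longest peak and 0 to 1 without 1 library. Of all regions 0.0694% passed on the log2 longest peak and 0 to 0.407% without 1 library. For the slope they numbered 0 with all deposited peaks, 0 at the stricter q, 10 on the log2 longest peak (9 rising, 1 falling), 3 with at least 1 library, 3 with the replicate block, 2 to 10 without 1 library and 0 to 43 with all deposited peaks without 1 library (43 without DIV1 replicate 1, 3 and 2 without DIV3 replicate 1 or 3). Of all regions 0.129% passed on the log2 longest peak, 0.125% with at least 1 library and 0.666% with the block. Without 1 library it was 0.24 to 1.7%, and 0 to 6.07% with all deposited peaks. For GSK-126 they numbered 248 with all deposited peaks, 11 on the log2 longest peak (9 higher, 2 lower), 0 with at least 1 library, 0 with the replicate block on either list, 0 without any 1 library and, with all deposited peaks, 0 to 134 without 1 library. Of all regions 11.9% passed with all deposited peaks, 0.139% on the log2 longest peak and 0 to 6.15% with all deposited peaks without 1 library. At the common length without 1 library, 16 to 18 of the 21 called regions could be tested. For GSK-J4 they numbered 5 on the log2 longest peak, where 0.0883% of all regions passed, and 0 in the other settings run. With all deposited peaks Srd5a2 turned to −8.46 points, with and without the replicate block, and to −10.5, −16.9, −2.82, −6.30 and −16.3 points without 1 library, and Pkp1 to −0.433 points without GSK-126 replicate 1. The causes were not tested. Under the replicate block the DIV7 minus DIV1 count was 5 (0.627%, where 0.688% of all regions passed). Same-number correlations ran from −0.100 to 0.142 in the time course, −0.0648 to 0.138 with GSK-126 and 0.0447 to 0.134 with GSK-J4, where other pairs reached 0.0223, and 7 of 12, 3 of 6 and 6 of 6 libraries correlated best with their own number, which for GSK-J4 is a hint of pairing from the data and not from the design. Calls rest on 3 libraries a group and unknown depth.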
